A study of Mus musculus with 12 samples.

Results

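The Clk genes encode the CDC2-like kinases, and the 4 mouse genes Clk1, Clk2, Clk3 and Clk4 were taken by their symbols from a table of 17419 genes. Each symbol matched a single gene, and all 4 passed the filter on low counts that kept 11564 genes for testing. They were measured in NIH-3T3, a continuously growing line of mouse embryonic fibroblasts labelled as wild type, in an experiment on how the duration of metabolic labelling affects quantification. Cells received 4-thiouridine (4sU), a uridine analogue that is built into RNA as it is made, at 800 µM for 15, 30, 60, 90 or 120 min, or no 4sU (the no4sU group). Each of the 6 groups had 2 libraries, replicates A and B. The labels give 1 protocol for all libraries, with the iodoacetamide step of SLAM-seq that makes incorporated 4sU appear in reads as a T-to-C change. The new-to-total ratio (NTR) is the share of a gene's RNA that was made during labelling, as the authors estimated it from these conversions for each gene and library. The labels do not say whether A and B were separate cultures, so p-values measure only the spread between these libraries.

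CLK proteins are dual-specificity kinases that share a conserved signature in their catalytic domain, for which they are also called LAMMER kinases. They phosphorylate SR proteins, the serine- and arginine-rich splicing factors, and so release them from nuclear speckles to sites of splicing. Their own transcripts are spliced in more than a single way, and for Clk1 and Clk4 in particular, transcripts that keep introns are known to be held in the nucleus. Clk1 and Clk4 are the closest relatives within the family, and Clk2 and Clk3 are more distant from them.

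Locations are from GENCODE M21 on GRCm38, a build that may not be that of the authors. Clk1 (ENSMUSG00000026034) is a minus-strand gene of chromosome 1 (58410189 to 58424066), and Clk4 (ENSMUSG00000020385) a plus-strand gene of chromosome 11 (51261730 to 51281766). Clk2 (ENSMUSG00000068917) is a plus-strand gene of chromosome 3 (89164795 to 89176921), and Clk3 (ENSMUSG00000032316) a minus-strand gene of chromosome 9 (57750624 to 57765860). The longest protein-coding transcript of every member has 13 exons. This release lists 7 transcripts of the type retained intron for Clk1 and 7 for Clk4, against 4 for Clk2 and 4 for Clk3. Of the 11240 protein-coding genes that were tested, 60.1% have such a transcript. Fewer than Clk1 or Clk4 are listed for 97.4% of them, and fewer than Clk2 or Clk3 for 86.1%. The longest coding transcripts also differ in base content. T makes up 27.4% of that of Clk1 and 27.0% of that of Clk4, but 19.6% of that of Clk2 and 18.8% of that of Clk3, with a median of 24.5% over 11169 genes. T is the base at which conversions are read.

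The promoters are shown as the places where transcription of the genes starts. A link between promoter sequence and the NTR was not tested. RefSeq's table on GRCm38.p6 held 3 of the 4 members, each from 250 bases before to 50 bases after the start that RefSeq gives, written 5′ to 3′ on the gene's strand. Clk4 is at chr11:51262864-51263163 (plus), with a RefSeq start 1384 bases downstream of the GENCODE gene start above, Clk2 at chr3:89164545-89164844 (plus), where both starts are the same base, and Clk3 at chr9:57765065-57765364 (minus), with a RefSeq start 746 bases downstream. Capitals mark the cAMP response element TGACGTCA and its shorter form TGACG, searched on both strands (CGTCA on the other), a motif chosen after the sequences were seen.
Clk4: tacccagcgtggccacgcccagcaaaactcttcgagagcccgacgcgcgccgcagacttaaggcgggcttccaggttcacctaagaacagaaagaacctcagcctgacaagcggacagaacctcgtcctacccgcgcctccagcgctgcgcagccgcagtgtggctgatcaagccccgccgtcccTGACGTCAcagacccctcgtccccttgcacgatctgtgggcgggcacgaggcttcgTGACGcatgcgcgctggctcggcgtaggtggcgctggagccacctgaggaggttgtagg
Clk2: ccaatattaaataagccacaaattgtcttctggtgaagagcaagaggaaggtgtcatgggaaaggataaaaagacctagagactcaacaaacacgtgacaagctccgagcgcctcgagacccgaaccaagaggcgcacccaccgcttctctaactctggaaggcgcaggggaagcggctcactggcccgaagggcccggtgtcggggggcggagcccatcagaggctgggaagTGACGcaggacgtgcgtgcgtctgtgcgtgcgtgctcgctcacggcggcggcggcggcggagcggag
Clk3: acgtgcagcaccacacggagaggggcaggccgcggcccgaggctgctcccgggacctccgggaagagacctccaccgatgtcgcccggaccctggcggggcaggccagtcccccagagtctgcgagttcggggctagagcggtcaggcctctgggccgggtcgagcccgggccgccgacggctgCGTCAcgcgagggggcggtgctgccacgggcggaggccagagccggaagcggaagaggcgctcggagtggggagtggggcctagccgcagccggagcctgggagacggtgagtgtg
The full element is present 1 time, in Clk4, and in 1.79% of all 32851 promoters of this length. The form TGACG occurs 3 times in Clk4, counting both strands and the 2 copies inside the full element, 1 time in Clk2 and 1 time in Clk3. It is found in 20.8% of all promoters. These are matches of letters in the windows shown.

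Libraries held 9917026 to 13739380 reads. The 8 fibroblast markers, Col1a1, Col1a2, Fn1, Vim, Pdgfra, Pdgfrb, S100a4 and Thy1, summed to between 16000 and 19500 counts per 1000000 reads (CPM), while Ptprc (leukocyte), Cdh1 (epithelial), Pecam1 and Kdr (endothelial) stayed below 1 CPM in every library. Of the remaining markers, Cd68 (leukocyte) was at 4.20 to 6.76 CPM and Cdh5 (endothelial) at 0.661 to 1.55. Adgre1 (leukocyte), Epcam and Krt18 (epithelial) had no symbol match among the 17419 genes, so Cdh1 was the only epithelial marker measured. With bulk RNA, fewer cells of a type and less RNA per cell cannot be told apart. The no4sU libraries stood apart. The mean chi-square between replicates A and B was 10.07 for no4sU and 1.54 to 1.94 in the labelled groups. Over the 9065 genes whose counts averaged 100 or more, the log2 difference of A minus B and gene length were related with Spearman's rho of -0.576, so longer genes tended to be lower in A. The same difference was -0.30 for Clk1 and -0.31 for Clk4, but 0.01 for Clk2 and 0.04 for Clk3. Clk1 is longer than 72.5% of these genes, Clk3 than 59.9%, Clk4 than 48.8% and Clk2 than 41.1%. The part of length in the differences of the members was not tested. Comparisons among labelled libraries therefore are given before those with no4sU.

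Clk1, the founding member of the family, was the most abundant in CPM. It was at 69.6 and 86.0 CPM (A and B) in the absence of 4sU, 74.4 and 78.1 after 15 min, 65.5 and 81.2 after 30 min, 56.3 and 64.2 after 60 min, 56.9 and 57.1 after 90 min and 52.8 and 59.3 after 120 min. All 4 libraries of 90 and 120 min were below all 4 of 15 and 30 min, and below both no4sU libraries. Clk4, the nearest relative of Clk1, was lower. Its values were 39.3 and 49.0 CPM in the absence of 4sU, 42.7 and 41.2 after 15 min, 40.5 and 42.7 after 30 min, 32.2 and 36.9 after 60 min, 33.9 and 30.1 after 90 min and 32.4 and 31.2 after 120 min. Every Clk4 library from 60 min onwards was below every library of 15 min, 30 min and no4sU.

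Clk2, a kinase that also acts in insulin-dependent metabolic control in the liver, varied between 37.4 and 49.3 CPM. It was at 49.3 and 49.0 CPM in the absence of 4sU, 42.1 and 42.0 after 15 min, 44.4 and 42.5 after 30 min, 45.8 and 44.5 after 60 min, 39.7 and 37.4 after 90 min and 37.8 and 41.4 after 120 min. Its no4sU libraries were higher than all 10 labelled ones. Clk3 was at 40.9 and 39.9 CPM in the absence of 4sU, 37.8 and 33.9 after 15 min, 40.5 and 38.4 after 30 min, 37.5 and 38.1 after 60 min, 30.1 and 30.4 after 90 min and 28.1 and 29.6 after 120 min. The 60 min libraries of Clk3 lay within the range of its short-labelled ones, and those of 90 and 120 min lay below all the rest.

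**Figure D1:**
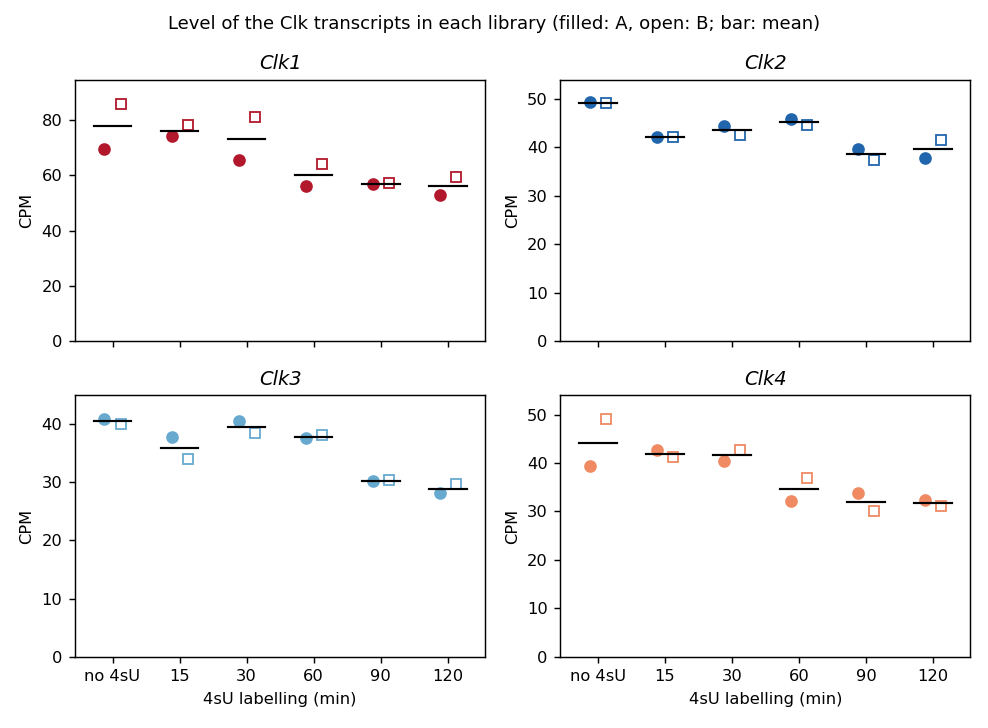
Level of Clk1, Clk2, Clk3 and Clk4 in CPM (vertical axes from 0) against 4sU labelling time in min, with replicate A filled, replicate B open and a bar at the mean of the 2 libraries. Clk1 runs from 69.6 and 86.0 CPM without 4sU to 52.8 and 59.3 after 120 min, and Clk2 from 49.3 and 49.0 to 37.8 and 41.4.

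Levels of different genes were compared per kilobase of the gene length in the authors' table (4865 bases for Clk1, 3168 for Clk2, 4130 for Clk3 and 3543 for Clk4). Without 4sU, Clk1 was at 16.0 ± 2.38 CPM per kilobase (SD, n = 2), Clk2 at 15.5 ± 0.0802, Clk4 at 12.5 ± 1.93 and Clk3 at 9.78 ± 0.172. Clk1 and Clk2 did not differ beyond their spread, and their order changed between libraries. Clk4 was above Clk3 and below both Clk1 and Clk2 in all 12 libraries. At 120 min Clk2 was at 12.5 ± 0.806 CPM per kilobase, Clk1 at 11.5 ± 0.937, Clk4 at 8.97 ± 0.229 and Clk3 at 6.98 ± 0.253, with Clk2 above Clk1 in both libraries.

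The NTR divided the family into 2 pairs. Clk1 was at 7.44% and 3.49% new RNA (A and B) after 15 min, 36.6% and 30.5% after 30 min, 75.0% and 73.4% after 60 min, 89.2% and 96.3% after 90 min and 99.6% and 100.0% after 120 min. Clk4 was at 4.13% and 2.53%, 30.3% and 18.5%, 63.1% and 75.7%, 88.7% and 76.1%, and 99.7% and 99.2% at the same durations. In both genes nearly all transcripts counted after 120 min were estimated as new, and the 0.05 quantile of the NTR was then at or above 92.1% in each of the 4 values.

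Clk2 and Clk3 had lower ratios from 60 min onwards. Clk2 was at 4.32% and 1.29% new RNA after 15 min, 8.74% and 17.4% after 30 min, 40.4% and 42.4% after 60 min, 62.6% and 56.2% after 90 min and 80.8% and 76.3% after 120 min. Clk3 was at 5.67% and 1.92%, 22.1% and 21.2%, 43.7% and 42.1%, 68.5% and 54.7%, and 81.3% and 73.9% at the same durations. At 60 min no library of Clk2 or Clk3 reached the lowest library of Clk1 or Clk4. All 4 genes were nonetheless well above the median NTR of the 9065 genes, which was 15.2% and 15.8% after 60 min. In the 60 min libraries Clk1 exceeded 98.6% and 98.0% of these genes and Clk4 97.0% and 98.3%, while Clk2 exceeded 89.2% and 89.3% and Clk3 91.0% and 89.2%.

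**Figure D2:**
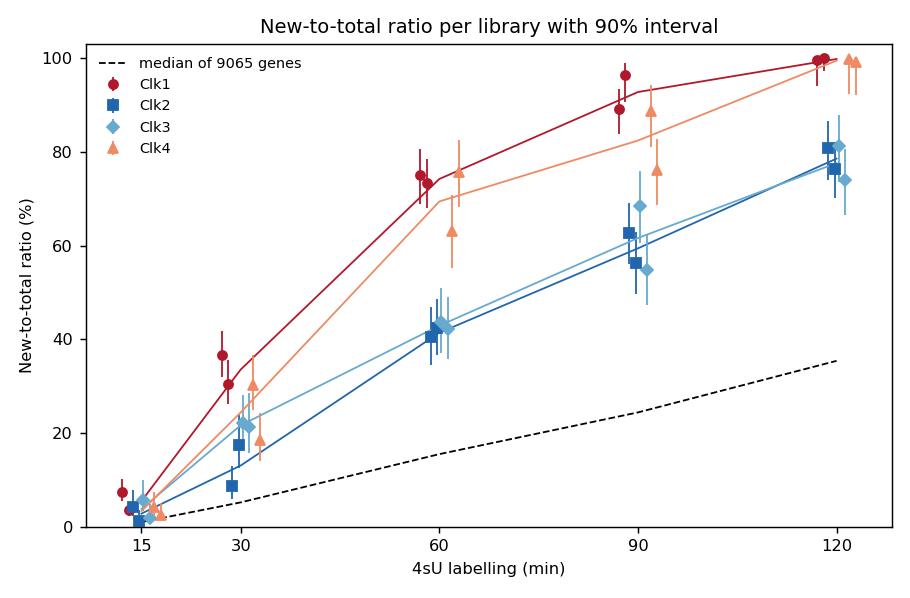
NTR in percent of Clk1 to Clk4 in each labelled library against labelling time in min, with points spread sideways for legibility, bars for the authors' 90% interval (extended to the point where the posterior maximum lies outside it) and lines through the means of 2 libraries. Clk1 and Clk4 lie above Clk2 and Clk3 from 60 min onwards, and all 4 lie above the dashed median of 9065 genes.

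The differences were tested within libraries with a two-sided exact sign-flip permutation test over the 10 labelled libraries, for 6 pairs of genes with Benjamini-Hochberg adjustment. The NTR of Clk1 was 22.1 percentage points above that of Clk2 (SD 12.8, n = 10, higher in 10 of 10 libraries, exact p = 0.00195, adjusted 0.00586) and 19.7 points above that of Clk3 (SD 13.2, 10 of 10, exact p = 0.00195, adjusted 0.00586). The p of 0.00195 is the smallest that 10 libraries allow. These libraries span all labelling durations, and Clk1 minus Clk2 ran from 2.2 to 40.1 points over them. The SDs thus include the change with labelling time and are not the spread between replicates alone. The NTR of Clk2 minus that of Clk4 was -16.8 points (SD 11.8, exact p = 0.00391, adjusted 0.00781) and that of Clk3 minus Clk4 was -14.3 points (SD 12.4, exact p = 0.0137, adjusted 0.0205), with Clk2 the higher in 1 and Clk3 in 2 of 10 libraries. Within the pairs the differences were smaller. Clk1 exceeded Clk4 by 5.37 points (SD 7.19, higher in 8 of 10, exact p = 0.0352, adjusted 0.0422), and without the 15 min libraries this was 6.17 points with an adjusted exact p of 0.0938. Clk2 minus Clk3 was -2.46 points (SD 4.56, Clk2 higher in 3 of 10, exact p = 0.0996), with single libraries from -13.4 to 2.44 points. The authors' 90% intervals of Clk1 and Clk2 did not touch in 8 of 10 libraries, and those of Clk2 and Clk3 did not touch in 1 of 10. The T content given above divides the genes in the same way, and its part in the NTR was not tested.

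The apparent half-life is the half-life that gives the measured NTR if the level of a transcript is constant. At 60 min it was 30.7 ± 0.981 min for Clk1 (SD, n = 2), 35.5 ± 8.69 min for Clk4, 77.9 ± 3.41 min for Clk2 and 74.2 ± 2.49 min for Clk3. At 30 min the values were longer, at 51.4 ± 8.20 min for Clk1, 79.8 ± 31.3 min for Clk4, 168 ± 83.9 min for Clk2 and 85.4 ± 2.91 min for Clk3, and after 15 min they ranged from 134 to 801 min over the 8 values of the 4 genes. At 90 min they were 23.5 ± 6.46 min for Clk1, 36.1 ± 10.6 min for Clk4, 69.5 ± 8.64 min for Clk2 and 66.4 ± 17.5 min for Clk3. At 120 min only Clk2 (54.1 ± 5.15 min) and Clk3 (55.8 ± 8.71 min) gave a value, since the NTR of Clk1 and Clk4 was above 99%, where the formula is not stable. The mean estimate was thus shorter at 60 than after 30 min in all 4 genes.

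Multiplying the CPM by the NTR gives the new part of a level, and the remainder is the old part, made before labelling. The old part of Clk1 fell from 72.1 ± 4.62 CPM after 15 min (SD, n = 2) to 48.9 ± 10.6 after 30 min, 15.6 ± 2.11 after 60 min, 4.13 ± 2.86 after 90 min and 0.103 ± 0.146 after 120 min. Its new part was 4.13 ± 1.99, 24.4 ± 0.541, 44.7 ± 3.47, 52.9 ± 3.02 and 55.9 ± 4.71 CPM at these durations, and so ended below the total of 77.8 ± 11.6 CPM without 4sU. Clk4 went from 40.5 ± 0.523 CPM old RNA after 15 min to 10.4 ± 2.07 after 60 min and 0.173 ± 0.126 after 120 min. After 120 min the NTR of Clk1 and Clk4 lay near its upper bound. The SD of the old part does not include the uncertainty of each NTR. The lower ends of the authors' intervals were then 94.1% and 97.3% for Clk1 and 92.3% and 92.1% for Clk4 (A and B). With the posterior mean, the NTR of Clk4 was 98.4% in place of 99.4%. In Clk2 26.5 ± 1.17 CPM of old RNA was left after 60 min and 8.53 ± 1.79 after 120 min, and in Clk3 21.6 ± 0.658 and 6.48 ± 1.74.

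A straight line through log2 of the old CPM over the 8 libraries from 15 to 90 min, a summary chosen after the values were seen, gave a halving time of 17.2 ± 1.87 min for Clk1 (SE of the fit), 24.3 ± 2.47 min for Clk4, 47.2 ± 5.75 min for Clk3 and 53.3 ± 4.63 min for Clk2. Leaving out each library in turn gave 15.6 to 20.5 min for Clk1, 21.5 to 26.7 for Clk4, 43.9 to 57.6 for Clk3 and 51.0 to 58.1 for Clk2, so the ranges of the fast and the slow pair did not meet. These halving times are shorter than the apparent half-lives after 60 min and rest on the slope between durations, with no assumption that the level is constant. Taken on 1 minus the NTR, which leaves out the fall of the total, they were 19.2, 28.2, 56.7 and 58.0 min for Clk1, Clk4, Clk3 and Clk2.

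**Figure D3:**
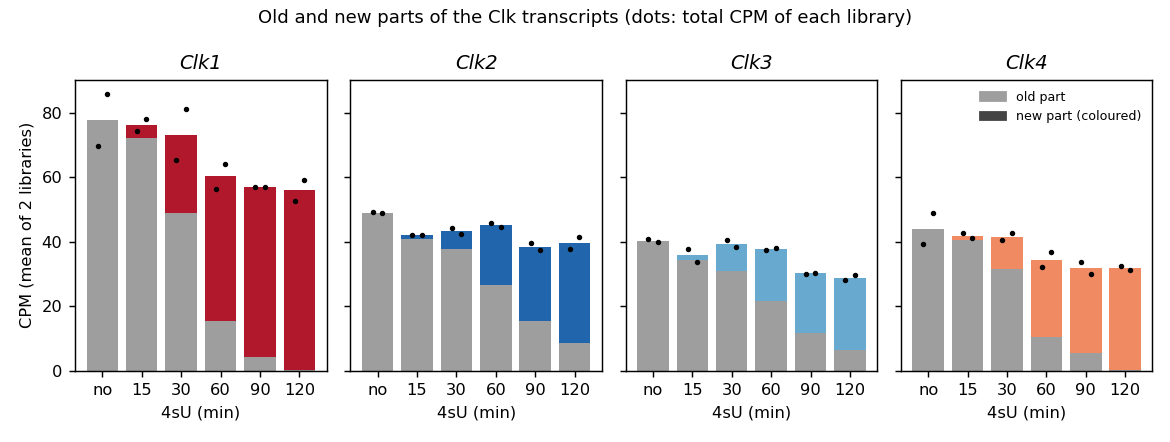
Stacked bars of the mean old part (grey) and new part (coloured) in CPM of 2 libraries for Clk1 to Clk4 against labelling time in min (no: no4sU), with a dot for the total of each library. The grey part of Clk1 shrinks from 72.1 CPM after 15 min to 0.103 after 120 min, while that of Clk2 still holds 8.53 CPM after 120 min. The old part of Clk1 and Clk4 after 120 min rests on NTR estimates near their upper bound.

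For changes in counted levels with labelling, edgeR's quasi-likelihood test was run on all 11564 genes in a single fit of 12 libraries. A gene was called when its p, adjusted by Benjamini-Hochberg, was under 0.05. Dispersion was shared over all groups, so SEs and p-values against no4sU understate the spread of the no4sU libraries. With only the compared libraries fitted, genes called went from 161 to 2 at 90 min against no4sU and from 1643 to 171 at 120 min. For 90 and 120 against 15 and 30 min they rose from 2715 to 4081. In long (90 and 120 min) against short labelling (15 and 30 min), 4 libraries a side, Clk1, Clk3 and Clk4 fell. Clk1 was 24.2% lower, with a log2 fold change of -0.40 ± 0.0735 (SE, edgeR adjusted p = 0.000835). Clk4 was at -0.39 ± 0.0728 (edgeR adjusted p = 0.000937) and Clk3 at -0.35 ± 0.0600 (edgeR adjusted p = 0.000487). Clk2 was at -0.13 ± 0.0555 and did not pass (edgeR adjusted p = 0.0963). It passed in a fit of only these 8 libraries (-0.14, adjusted p = 0.0429), of the 10 labelled libraries (-0.13, adjusted p = 0.0496) and with scaling by library size alone (-0.18, adjusted p = 0.0245), where 19.4%, 18.4% and 18.7% of all genes were called lower. So 3 of 4 members were called lower, where 13.3% of all tested genes were and 10.2% were called higher (18.7% and 3.98% with scaling by library size alone), and the median log2 fold change was -0.37 over the members and 0.01 over all genes tested.

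The libraries of long and short labelling did not overlap for any member. Clk1 spanned 52.8 to 59.3 CPM in the long and 65.5 to 81.2 CPM in the short libraries, Clk4 30.1 to 33.9 and 40.5 to 42.7, Clk3 28.1 to 30.4 and 33.9 to 40.5, and Clk2 37.4 to 41.4 and 42.0 to 44.4. Each thus had an exact two-sided permutation p of 0.0286 (4 against 4 libraries), the smallest this design allows. The background of this pattern was high, since 13.7% of all tested genes had every long-labelled library below every short-labelled one.

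At the ends of the series, 120 against 15 min, Clk1 was at -0.44 ± 0.103 (SE, edgeR adjusted p = 0.00585), Clk4 at -0.40 ± 0.102 (edgeR adjusted p = 0.00932) and Clk3 at -0.31 ± 0.0846 (edgeR adjusted p = 0.0141). Clk2 was at -0.08 ± 0.0776 (edgeR adjusted p = 0.470), with an interval of -0.24 to 0.07 (1.96 SE either side). Again 3 of 4 members were called lower, against 11.3% of all genes, with 7.93% called higher (16.1% and 3.68% with scaling by library size alone). With 2 libraries a side, these calls rested on single libraries. Clk1 lost its call without 120 min replicate A (-0.36, adjusted p = 0.0892) or 15 min replicate B (-0.41, adjusted p = 0.0599). Clk4 lost it without 120 min replicate A or B or 15 min replicate A (-0.42, -0.38 and -0.38, adjusted p = 0.0502, 0.0951 and 0.0915). Clk3 lost it without 120 min replicate A or B or 15 min replicate A (-0.27, -0.36 and -0.23, adjusted p = 0.110, 0.0601 and 0.190), and with DESeq2 (adjusted p = 0.0503).

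Against no4sU, which these 5 comparisons share, none of the 4 members was called after 15 min by edgeR or DESeq2 (0 and 0), after 30 min (0 and 0) or after 60 min (0 and 0), where edgeR called 0%, 0% and 0.0173% of all genes. Before adjustment 2, 1 and 2 members had an edgeR p under 0.05, against 5.34%, 5.79% and 7.74% of all genes. At 60 min Clk1 stood at -0.37 ± 0.101 (SE, edgeR adjusted p = 0.292) and Clk4 at -0.36 ± 0.0991 (adjusted p = 0.325), while Clk2 was at -0.12 ± 0.0747 and Clk3 at -0.09 ± 0.0800. Without no4sU replicate A, Clk1 (-0.51, adjusted p = 0.00043) and Clk4 (-0.50, adjusted p = 0.00145) passed after 60 min, and without no4sU replicate B they were at -0.20 (adjusted p = 0.184) and -0.18 (adjusted p = 0.299).

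At 90 min all 4 members were called lower against no4sU, where 0.943% of all genes were. The log2 fold changes were -0.46 for Clk1, -0.35 for Clk2, -0.42 for Clk3 and -0.47 for Clk4, with edgeR adjusted p-values from 0.0161 to 0.0291. None of these calls remained without 90 min replicate A or replicate B, where a group held 1 library and fewer of all genes were called. They were also lost when only the no4sU and 90 min libraries were fitted (edgeR adjusted p from 0.379 to 0.491). The fold changes stayed near the values above, at -0.46, -0.40, -0.42 and -0.56 without replicate A and -0.47, -0.32, -0.43 and -0.40 without replicate B, in the order Clk1 to Clk4. With no4sU replicate B left out, Clk4 was not called either (-0.30, adjusted p = 0.0600), and Clk1 was then at -0.29 (adjusted p = 0.0432).

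At 120 min all 4 were called lower again, with 8.78% of all genes. Clk1 was at -0.48 ± 0.102 (SE, edgeR adjusted p = 0.00448), Clk2 at -0.31 ± 0.0755 (adjusted p = 0.0104), Clk3 at -0.49 ± 0.0826 (adjusted p = 0.000858) and Clk4 at -0.49 ± 0.0999 (adjusted p = 0.00348). The no4sU library used as reference moved Clk1 and Clk4 but hardly Clk2 and Clk3. Without no4sU replicate B Clk1 was at -0.31, Clk4 at -0.31, Clk2 at -0.31 and Clk3 at -0.50, and without replicate A they were at -0.61, -0.63, -0.30 and -0.47. Clk1 and Clk2 were not called without 120 min replicate A (-0.39 and -0.24), and Clk4 was not called without 120 min replicate B (-0.46). Fewer of all genes were called in both of these fits. When only the no4sU and 120 min libraries were fitted, Clk3 kept its call (adjusted p = 0.0398), and Clk1 (0.0537), Clk4 (0.0634) and Clk2 (0.130) did not.

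**Figure D4:**
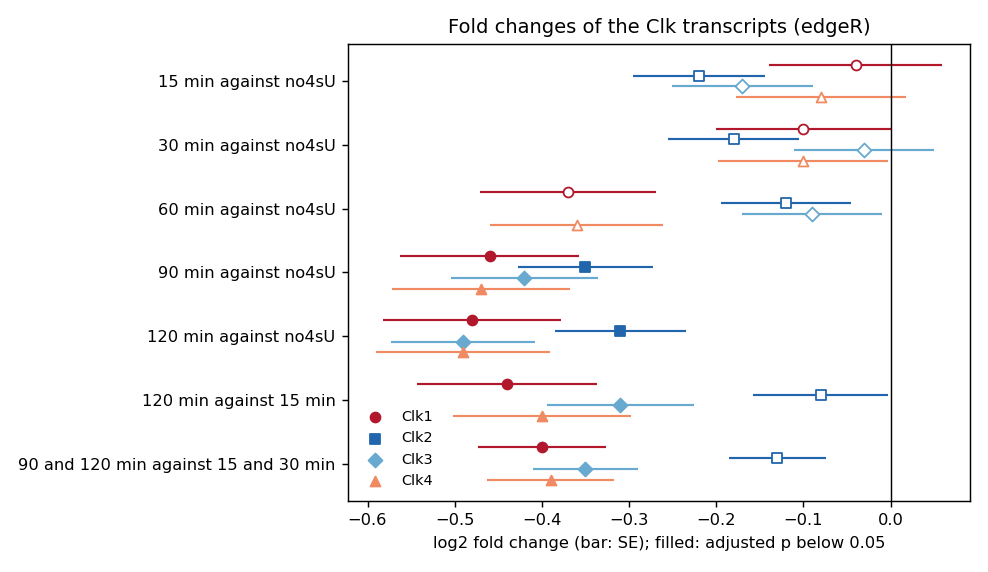
Log2 fold changes of Clk1 to Clk4 from edgeR (horizontal axis, bars are SE) in the 7 comparisons, with filled symbols for an adjusted p below 0.05. Clk1, Clk3 and Clk4 are filled in both comparisons among labelled libraries, where Clk2 lies at -0.08 and -0.13.

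The fold changes were also computed with the new part of each count scaled up. The factor of a library was the loss of new RNA at which log2 fold change and NTR were no longer rank-correlated across 9065 genes, and this implied loss was a fraction of 0.305 and 0.321 in the 120 min libraries, 0.209 and 0.242 after 90 min and 0.162 and 0.131 after 60 min. It was -0.297 and -0.0282 in the 15 min libraries (A and B) and 0.00443 and -0.0256 in those of 30 min. Negative values were set to 0. The value of 15 min replicate A was thus close in size to those of 120 min, with the opposite sign. After scaling, no member was called in any comparison by edgeR. Of all genes, 2.04% were then called lower in long against short labelling. There Clk1 was at -0.13 (adjusted p = 0.387), Clk4 at -0.14 (0.332), Clk3 at -0.19 (0.0922) and Clk2 at 0.03 (0.824). The scaling raises a count more the higher the NTR of the gene. The larger reduction for Clk1 than for Clk3 therefore follows from the method and is not a result about these genes. This scaling is set by all genes and says nothing of the loss of a single transcript.

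Differences between members in their change were tested on the log2 ratio of their counts within each library, which does not depend on depth or scaling. From short to long labelling the ratio of Clk2 to Clk4 rose from 0.03 ± 0.0693 (SD, n = 4) to 0.29 ± 0.0863, a change of 0.26 (exact permutation p = 0.0286, adjusted over 6 pairs 0.114). That of Clk1 to Clk2 changed by -0.27 (exact permutation p = 0.0571, adjusted 0.114) and that of Clk2 to Clk3 by 0.22 (exact permutation p = 0.0571, adjusted 0.114). No pair passed after adjustment. With 4 against 4 libraries, 3 pairs that all reached the smallest p of 0.0286 would have an adjusted p of 0.0571, so the 3 pairs with Clk2 could not have passed on their own and the test does not settle whether Clk2 fell less. The intervals of their changes were -0.44 to -0.10 for Clk1 to Clk2, 0.10 to 0.33 for Clk2 to Clk3 and 0.15 to 0.37 for Clk2 to Clk4. Among the other 3 genes the changes of ratio were -0.01 for Clk1 to Clk4 (interval -0.17 to 0.14), -0.05 for Clk1 to Clk3 (-0.27 to 0.16) and 0.04 for Clk3 to Clk4 (-0.11 to 0.19). These intervals are 1.96 SE either side.

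Reads from the other strand bear on Clk3. Edc3, which encodes an enhancer of mRNA decapping, overlaps it on the plus strand and shares 15.2% of the 8450 exonic bases annotated for Clk3. Edc3 was at 19.1 to 27.4 CPM, with an NTR of 40.7% and 49.6% after 60 min, and changed by -0.22 in long against short labelling (edgeR adjusted p = 0.0327). Strand use in counting was not given in the sources used here. Reads in the shared bases therefore cannot be told apart. BC049762 overlaps Clk4 on the minus strand but shares 0 exonic bases with it and did not exceed 0.0904 CPM. The exonic lengths do not equal the lengths in the authors' table.

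Likeness was measured over the 9065 genes, as the root mean square difference of the NTR over the 10 labelled libraries. The genes nearest to Clk1 were Sox9 (2.28 percentage points), Enc1 (2.77) and Cited2 (3.17), the first and the last of which encode transcriptional regulators. Nearest to Clk4 were Oser1 (2.21), Rbm15 (3.66), which encodes an RNA-binding protein, and Vgll4 (3.94). Clk2 was nearest to Dcp2 (2.22), which encodes the mRNA decapping enzyme, Camsap1 (2.52) and Nfrkb (2.58), and Clk3 to Socs6 (2.49), Zfp101 (3.13) and Insig1 (3.24). Within the family, Clk1 and Clk4 were 8.68 points apart and Clk2 and Clk3 4.98, while the distances between these pairs ran from 18.5 (Clk3 and Clk4) to 25.2 points (Clk1 and Clk2). Of 9064 other genes, Clk4 held rank 182 for Clk1 and Clk1 rank 231 for Clk4. Clk3 held rank 205 for Clk2, and Clk2 rank 45 for Clk3.

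By Pearson's r of log2(CPM + 1) over the 12 libraries, the levels most like Clk1 were those of Zfp948 (0.956), Snrnp48 (0.956), a component of the minor spliceosome, and Rbm39 (0.95), a splicing coactivator. For Clk4 they were Pcf11 (0.965), a factor of 3′ end processing, Klf6 (0.962) and Fbxo5 (0.961). The levels of Clk1 and Clk4 had an r of 0.933, which placed Clk1 at rank 17 of 9064 other genes for Clk4 and Clk4 at rank 7 for Clk1. This r includes the no4sU libraries, where the log2 difference of A minus B was -0.30 for Clk1 and -0.31 for Clk4. Clk2 and Clk3 had an r of 0.853, which placed Clk3 at rank 7 for Clk2 and Clk2 at rank 128 for Clk3. Clk2 was most like Msmo1 (0.916), Chfr (0.877) and Taf4 (0.877), and Clk3 most like Stxbp3 (0.943), Chfr (0.939) and Gen1 (0.936). These values are descriptions over libraries that share the labelling times and, in pairs, the groups.

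The other genes of the pathway were counted in 120 against 15 min, where 19.3% of all genes were called in either direction. Of the 13 listed SR and Tra2 proteins, the substrates of the kinases, 12 were tested and none was called (edgeR 0, DESeq2 0, and 1 with an edgeR p under 0.05 before adjustment, where 33.4% of all genes had one). Their log2 fold changes ran from -0.13 to 0.16 with a median of -0.03, and their NTR after 60 min from 11.4% to 32.0%, all below that of every Clk gene. When the fit held only the libraries of 15 and 120 min, 5 of them passed, with 33.6% of all genes, and with the 10 labelled libraries 4, with 32.1% of all genes.

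Of the 13 other SR protein kinases and relatives of the Clk family, 11 were tested, 3 fell and 1 rose. The falls were Dyrk2, a kinase of the related DYRK family, at -0.28 ± 0.0834 (SE, edgeR adjusted p = 0.0227), Srpk1, the main cytoplasmic SR protein kinase, at -0.28 ± 0.0591 (adjusted p = 0.00294), and Dyrk1a at -0.25 ± 0.0799 (adjusted p = 0.0340). Dyrk1b, with a mean count of 63.5 over the 12 libraries, rose by 0.74 ± 0.236 (edgeR adjusted p = 0.0344), from 4.75 and 3.44 CPM after 15 min to 5.95 and 7.58 after 120 min. It is named after its value was seen, and in long against short labelling it did not pass (0.40, edgeR adjusted p = 0.0908). With the new part of the counts scaled up, none of the 3 falls passed, at -0.00 for Dyrk2 (adjusted p = 0.995), -0.19 for Srpk1 (0.0956) and 0.02 for Dyrk1a (0.936), while Dyrk1b did (0.95, adjusted p = 0.0445). Leaving out a library of 15 or 120 min left a group of 1, where fewer of all genes were called and most or all of these 4 calls were lost. The 3 falls then lay between -0.32 and -0.18, and the rise of Dyrk1b between 0.52 and 0.99. DESeq2 called 2 genes of this list, with 12.6% of all genes, and did not call Dyrk1a (adjusted p = 0.067). Mean NTR values of the 2 libraries of 60 min in this list ran from 13.2% to 68.1%. Dyrk3, outside the naming rule and picked after its values were seen, had an NTR of 64.9% and 68.8% after 60 min, close to Clk4, and a log2 fold change of 0.14 ± 0.123 (edgeR adjusted p = 0.451).

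Of 5 genes for the import and dephosphorylation of SR proteins, Ppp1ca, a catalytic subunit of protein phosphatase 1, rose by 0.19 ± 0.0544 (SE, edgeR adjusted p = 0.0168) and 4 were not called. Ppp1ca had an NTR of 5.64% and 6.91% after 60 min, the lowest of the genes listed here. Its call was lost without any of the 4 libraries compared (0.18 to 0.21), where fewer of all genes were called. It was also lost with scaling by library size alone (0.14, edgeR adjusted p = 0.0803) and with the new part of the counts scaled up (0.05, edgeR adjusted p = 0.741).

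**Figure D5:**
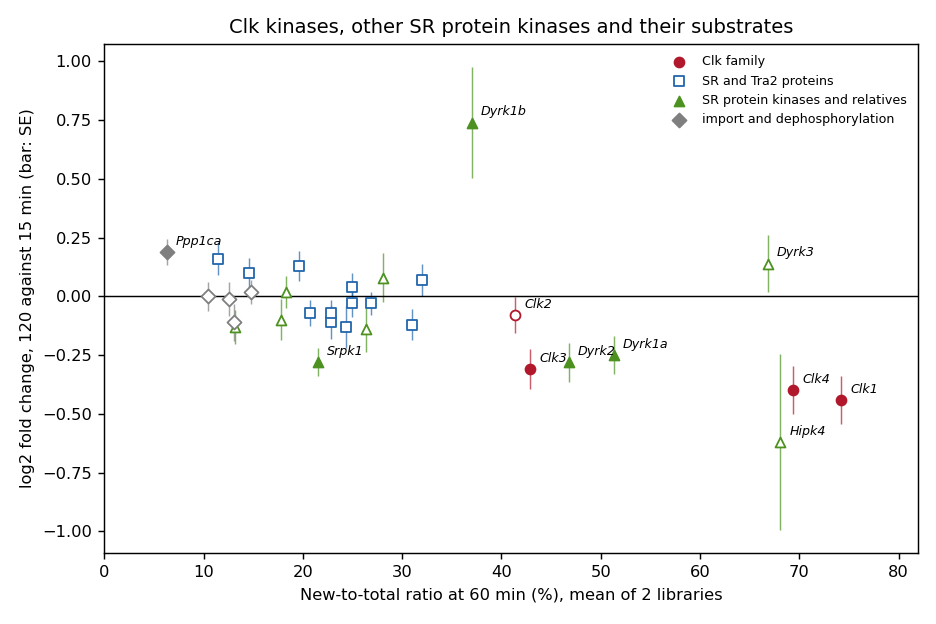
Log2 fold change of 120 against 15 min (edgeR, bars are SE) against the mean NTR of the 2 libraries after 60 min in percent, for the Clk genes and the 3 lists of their substrates, related kinases and regulators, with filled symbols for an adjusted p below 0.05. The SR and Tra2 proteins lie between 11.4% and 32.0% new RNA, to the left of all Clk genes.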

How the data were processed

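The authors deposited estimated counts per gene and library, 20.4% of them not whole (tolerance 1e-06), which were rounded here. The NTR was deposited as a fraction (per the file headers the posterior maximum, which was used, its mean, and quantiles of 0.05 and 0.95), and alpha and beta columns, a score each, were deposited but not used. The submitters' processing notes name cutadapt, Bowtie2 2.3.0 and STAR 2.7.10b. Counting tool, build, annotation and strand use: not given in the sources used here. Groups came from sample titles.

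Genes were kept by filterByExpr (11564) and fitted with edgeR 4.0.16 (R 4.3.3) with TMM factors of 0.970 to 1.02 and no covariate. SE is the absolute log2 fold change over the root of F. DESeq2 1.42.0 was an alternative. CPM used TMM library sizes. Apparent half-life was ln 2 times labelling time over -ln(1-NTR), for NTR between 0.01 and 0.99. Permutation tests used log2(CPM + 1) or count ratios (count + 1) in scipy 1.17.1. Plots used matplotlib 3.10.9.

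In simulated counts of 11564 genes, long against short labelling recovered 80.6% of 67 changes of 1.25-fold, with 7.46% false among the genes called, and 120 against 15 min recovered 56.7%, with 5.14% false. Only genes averaging 100 counts or more were changed there, and all groups were given the same dispersion. These shares therefore need not hold in the data. Members and lists were chosen with earlier results of these data known. List genes named were up to 3 falls and 2 rises past the threshold in 120 against 15 min, and averaging 100 counts or more. For likeness, 3 genes were named per member and measure. Errors over 2 libraries are imprecise.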

Additional observations from a re-analysis of the deposited data

How the results depend on the processing

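In long against short labelling, the calls of Clk1, Clk3 and Clk4 and the lack of a call for Clk2 by edgeR were the same when each of the 8 libraries was left out in turn, with log2 fold changes from -0.48 to -0.32, -0.39 to -0.31, -0.44 to -0.35 and -0.17 to -0.10 in the order Clk1, Clk3, Clk4 and Clk2. Clk2 passed with library size alone (-0.18), with only the 10 labelled libraries (-0.13) and with only the libraries compared (-0.14). With the new part of the counts scaled up, values in the order Clk1, Clk2, Clk3 and Clk4 were -0.13, 0.03, -0.19 and -0.14 in long against short labelling, -0.13, 0.13, -0.10 and -0.09 in 120 against 15 min, -0.17, -0.10, -0.28 and -0.18 in 120 min against no4sU, and -0.23, -0.24, -0.30 and -0.28 in 90 min against no4sU. All calls were lost there, and Clk2 turned positive in the comparisons of labelled libraries. With only the libraries compared, the values were -0.45, -0.35, -0.42 and -0.47 at 90 min against no4sU, none called, and at 120 min -0.48, -0.31 and -0.48 for Clk1, Clk2 and Clk4, which lost their calls. Without a filter on low counts Clk1 (-0.37) and Clk4 (-0.36) passed at 60 min. DESeq2 gave -0.31 for Clk3 in 120 against 15 min, short of the threshold. Beyond the changes stated for a setting, the cause was not tested.

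With each compared library left out, the ranges for Clk1 were -0.17 to 0.13 at 15 min, -0.25 to 0.07 (0.05 without 30 min replicate A) at 30 min, -0.51 to -0.20 at 60 min, -0.60 to -0.29 at 90 min and -0.61 to -0.31 at 120 min against no4sU, and -0.53 to -0.36 in 120 against 15 min. For Clk2 they were -0.40 to -0.32 at 90 min and -0.38 to -0.24 at 120 min against no4sU. For Clk3 they were -0.07 to 0.00 at 30 min and -0.44 to -0.41 at 90 min, and -0.39 to -0.23 in 120 against 15 min. For Clk4 they were -0.22 to 0.09 at 15 min, -0.24 to 0.08 at 30 min, -0.50 to -0.18 at 60 min, -0.62 to -0.30 at 90 min and -0.63 to -0.31 at 120 min, and -0.43 to -0.38 in 120 against 15 min.

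The exact permutation tests of levels gave -0.456 to -0.354 for Clk1, -0.156 to -0.108 for Clk2, -0.387 to -0.304 for Clk3 and -0.408 to -0.354 for Clk4 without a library, where 4 against 3 cannot go below 0.0571. The ratio of Clk1 to Clk2 ranged from -0.35 to -0.226, Clk2 to Clk3 from 0.189 to 0.258 and Clk2 to Clk4 from 0.22 to 0.291, each of 1 sign. The ratio of Clk1 to Clk3 ranged from -0.151 to 0.0196, Clk1 to Clk4 from -0.0585 to 0.0282 (0.0172 without 15 min replicate B, 0.0190 without 30 min replicate B, 0.0146 without 90 min replicate A) and Clk3 to Clk4 from -0.00234 to 0.0921. NTR differences within a single replicate letter (5 libraries, no exact p below 0.0625) were 22.0 to 22.2 points for Clk1 minus Clk2, 17.3 to 22.0 for Clk1 minus Clk3, 4.38 to 6.35 for Clk1 minus Clk4, -4.87 to -0.058 for Clk2 minus Clk3, -17.8 to -15.7 for Clk2 minus Clk4 and -15.6 to -13.0 for Clk3 minus Clk4. Without the 15 min libraries Clk1 minus Clk4 was 6.17.

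Genes called among the kinases and relatives numbered 2 with DESeq2 (12.6% of all genes) and 1 with the scaled counts (2.15%). Among SR and Tra2 proteins they numbered 4 with the labelled libraries and 5 with those compared (32.1% and 33.6% of all genes). Import and dephosphorylation genes called were 0 with library size alone (19.8% of all genes) and 0 with the scaled counts (2.15%). They were 2 with the labelled libraries (32.1%) and 2 with those compared (33.6%). Without a library fewer of all genes were called, and most or all calls among the kinases and the import and dephosphorylation genes were lost. With the scaled counts Dyrk1a turned to 0.02, Dyrk2 was at -0.00, Srpk1 at -0.19 and Ppp1ca at 0.05, all without a call, and the call left among the kinases was the rise of Dyrk1b (0.95).

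Replicate letters were not taken as pairs, since A minus B correlated above 0.1 in 3 of 15 pairs of groups (-0.129 to 0.15). With the letter as a replicate block, Clk1 was at -0.45 in 120 against 15 min and no call of a member changed. Each member had 302 to 790 counts per library at 90 and 120 min.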
